A study of Mus musculus with 32 samples.

Results

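A set of 9 interferon-induced genes was followed in sorted mouse spinal cord microglia: the Ifit genes Ifit1, Ifit2, Ifit3 and Ifit3b, the ubiquitin-like modifier Isg15 with the enzymes that attach or remove it (Uba7, Herc6 and Usp18), and Ifi44. The genes were chosen as members of a family and a pathway, with earlier results of these data known, and were found by gene symbol, with the transcripts of each gene added up. All 9 were listed in both expression tables, out of 13377 genes in the female table and 11999 in the male table. RNA sequencing was done on 32 libraries of microglia isolated by fluorescence-activated sorting at day 14. Repopulated microglia came from mice labelled Cx3Cr1-Cre;Rosa26-iDTR whose microglia had been depleted with tamoxifen followed by diphtheria toxin, and resident microglia came from mice labelled as not depleted; each kind was taken with fracture and without. Females gave 4 repopulated fracture, 4 resident fracture, 3 repopulated no fracture and 4 resident no fracture libraries. Males gave 7 repopulated fracture, 5 resident fracture, 2 repopulated no fracture and 3 resident no fracture libraries.

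In this model the Cx3Cr1 promoter drives the Cre recombinase, which is active in microglia and in other mononuclear phagocytes, and recombination at the Rosa26 locus switches on the receptor for diphtheria toxin. The genotype label is the same for all libraries, but the library descriptions name the resident ones Wt or WT and the repopulated ones Dt or iDTR, and whether resident mice received tamoxifen or toxin is not stated. Genotype and toxin exposure on one side and repopulation on the other cannot be told apart here. Nothing in the labels ties each library to an animal of its own, and the spread behind every p-value is that between libraries, which may be technical. RNA of females was prepared by a commercial ultra-low input protocol and RNA of males with another kit, so sex and preparation cannot be told apart, and the tables were analysed separately.

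The members belong to the classical type I interferon response. Interferon binding to its receptor leads to the binding of transcription factors at interferon-stimulated response elements near the start of these genes. IFIT proteins bind foreign RNA and restrain its translation. ISG15 is a ubiquitin-like protein that is activated by the enzyme UBA7, joined to target proteins by HERC6 in the mouse, and removed again by the protease USP18, which also dampens signalling from the type I interferon receptor. In microglia such genes are known to be induced in infection, injury, ageing and neurodegeneration.

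The 4 Ifit genes lie side by side on the plus strand of chromosome 19 (GRCm38): Ifit2 at chr19:34550694-34576419, Ifit3 at chr19:34583531-34588731, Ifit3b at chr19:34607970-34613401 and Ifit1 at chr19:34640871-34650009. Herc6 (chr6:57581000-57664632) and Usp18 (chr6:121245906-121270917) are both on the plus strand of chromosome 6. Uba7 is on the plus strand at chr9:107975505-107984060, and Isg15 (chr4:156199424-156200818) and Ifi44 (chr3:151730922-151749960) are on the minus strand. All are protein-coding genes, and the values below are sums over their listed transcripts.

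The stretches of promoter that hold the response element are printed here because 8 of the 9 genes rose together in male repopulated microglia, and because the stretches of the near copies Ifit3 and Ifit3b can be compared letter by letter. The sequences are from RefSeq (GRCm38.p6), written 5′ to 3′ on the strand of the gene, with every match to GAAANNGAAA on either strand in capitals and 30 bases to each side. Ifit1 is read at chr19:34640755-34640843, Ifit3 at chr19:34583343-34583446, Ifit3b at chr19:34607739-34607842 and Isg15 at chr4:156200845-156200926.
Ifit1: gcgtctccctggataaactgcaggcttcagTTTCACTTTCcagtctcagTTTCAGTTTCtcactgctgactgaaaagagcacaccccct
Ifit3: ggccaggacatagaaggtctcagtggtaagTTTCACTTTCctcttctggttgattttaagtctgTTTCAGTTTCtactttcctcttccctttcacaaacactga
Ifit3b: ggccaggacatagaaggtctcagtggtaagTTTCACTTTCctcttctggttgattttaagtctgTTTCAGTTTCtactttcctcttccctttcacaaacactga
Isg15: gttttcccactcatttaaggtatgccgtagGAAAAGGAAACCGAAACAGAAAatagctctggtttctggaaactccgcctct

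GAAANNGAAA was found in the 250 bases before the start of 978 of 32851 promoters of the table (2.98%). Ifit1 held 2 matches that began 104 and 85 bases before its RefSeq start, Ifit3 held 2 at 156 and 122 bases, and Ifit3b held 2 at 188 and 154 bases. The Ifit3 and Ifit3b stretches are letter for letter the same. Isg15 held 3 overlapping matches that began 78, 72 and 66 bases before its start. No match was found for Ifit2, Herc6, Uba7 or Ifi44. The shorter AAANNGAAA, which every match to the longer motif also contains, was found in 3079 of 32851 promoters (9.37%) and added 1 match in Uba7 and 1 in Ifi44. Of the 9 members, 8 were in the promoter table and Usp18 was not. These matches are descriptions of the letters in this window.

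Values rest on the estimated transcript counts as deposited. Library totals ran between 16438827 and 18654165 in females and between 5722993 and 33697535 in males, where the lowest was resident no fracture library 2. Levels are given as CPM, a gene's counts scaled to a common library total after normalisation by the trimmed mean of M values. All 10 microglia markers were listed, with a summed level of 43850 to 64660 CPM over all libraries, and none of the 5 T and NK cell markers was listed. The summed microglia markers were thus high in every library, but a sum does not show the level of each marker. Of 10 markers of circulating macrophages and monocytes 8 were listed, while the defining Ccr2 and Ly6c2 were not.

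Male repopulated microglia without fracture had several-fold more RNA of the Ifit genes, Isg15, Usp18, Herc6 and Ifi44 than resident microglia without fracture. Of the 9 genes 8 rose at an adjusted p below 0.05 by edgeR's quasi-likelihood test where 4.7% of all genes were called higher, and 8 passed by DESeq2, which called 9.63% of all genes in either direction. The levels of both repopulated libraries were above those of the 3 resident libraries for all 9 genes, which held for 17.0% of all genes. The median log2 change of the 9 was 3.57, against -0.0281 over all genes. In bulk libraries of sorted cells, fewer cells of a type and less RNA per cell cannot be told apart.

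Ifit1, which binds the cap of viral RNA, had 127.4 and 110.7 CPM in the repopulated no fracture libraries of males, against 11.28, 8.9 and 11.66 CPM in the resident no fracture libraries. Ifit2, a partner of the other IFIT proteins that promotes cell death when abundant, had 332.9 and 244.6 CPM in repopulated and 9.246, 26.53 and 22.96 CPM in resident libraries. Ifit3, which stabilises Ifit1 on its targets in human cells, had 444.9 and 408.5 CPM in repopulated and 32.56, 45.51 and 31.33 CPM in resident libraries. The repopulated libraries were far above the resident ones for these 3 genes, with no overlap. The differences were 3.47 ± 0.44 for Ifit1 (log2 ± SE; edgeR adjusted p = 7.3e-05), 3.93 ± 0.69 for Ifit2 (15.2-fold, adjusted p = 0.0026) and 3.57 ± 0.54 for Ifit3 (11.9-fold, adjusted p = 0.000919). Ifit3b, the near copy of Ifit3, had 111.4 and 114.3 CPM in repopulated libraries, against 2.391, 15.45 and 6.875 CPM in resident libraries. Its log2 change was 3.93 ± 0.7 (edgeR adjusted p = 0.0026), and the resident libraries differed more among themselves for Ifit3b than for Ifit3.

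In the ISG15 pathway, the modifier Isg15 itself had 53.76 and 62.09 CPM in male repopulated no fracture libraries, against 4.145, 8.564 and 7.31 CPM in resident no fracture libraries. The protease Usp18 had 276.5 and 243.4 CPM in repopulated and 20.29, 22.33 and 20.39 CPM in resident libraries. Both genes were high in both repopulated libraries and low in all 3 resident ones. Isg15 rose by 3.15 ± 0.52 on the log2 scale (8.9-fold; edgeR adjusted p = 0.000677) and Usp18 by 3.64 ± 0.47 (12.4-fold; adjusted p = 0.000267). The ligase Herc6 had 74.32 and 60.91 CPM in repopulated and 11.8, 17.46 and 16.71 CPM in resident libraries, a log2 change of 2.15 ± 0.34 (4.45-fold; edgeR adjusted p = 0.000418). The activating enzyme Uba7 had 126.7 and 114.5 CPM in repopulated libraries, against 62.61, 70.53 and 96.69 CPM in resident libraries. The groups did not overlap for Uba7 either, but its log2 change of 0.65 ± 0.29 did not pass (unadjusted p = 0.0356, edgeR adjusted p = 0.219).

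Ifi44, an interferon-induced gene of the antiviral response, was the least abundant member. It had 18.94 and 14.64 CPM (222 and 161 counts) in the male repopulated no fracture libraries, against 0.1196, 0.8396 and 0.5532 CPM (3, 5 and 14 counts) in the resident no fracture libraries. The groups stood far apart, and the log2 change was 5.26 ± 0.96 (edgeR adjusted p = 0.00145), a size that rests on 22 counts in all 3 resident libraries together. Removing any 1 library kept 8 members called.

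**Figure D1:**
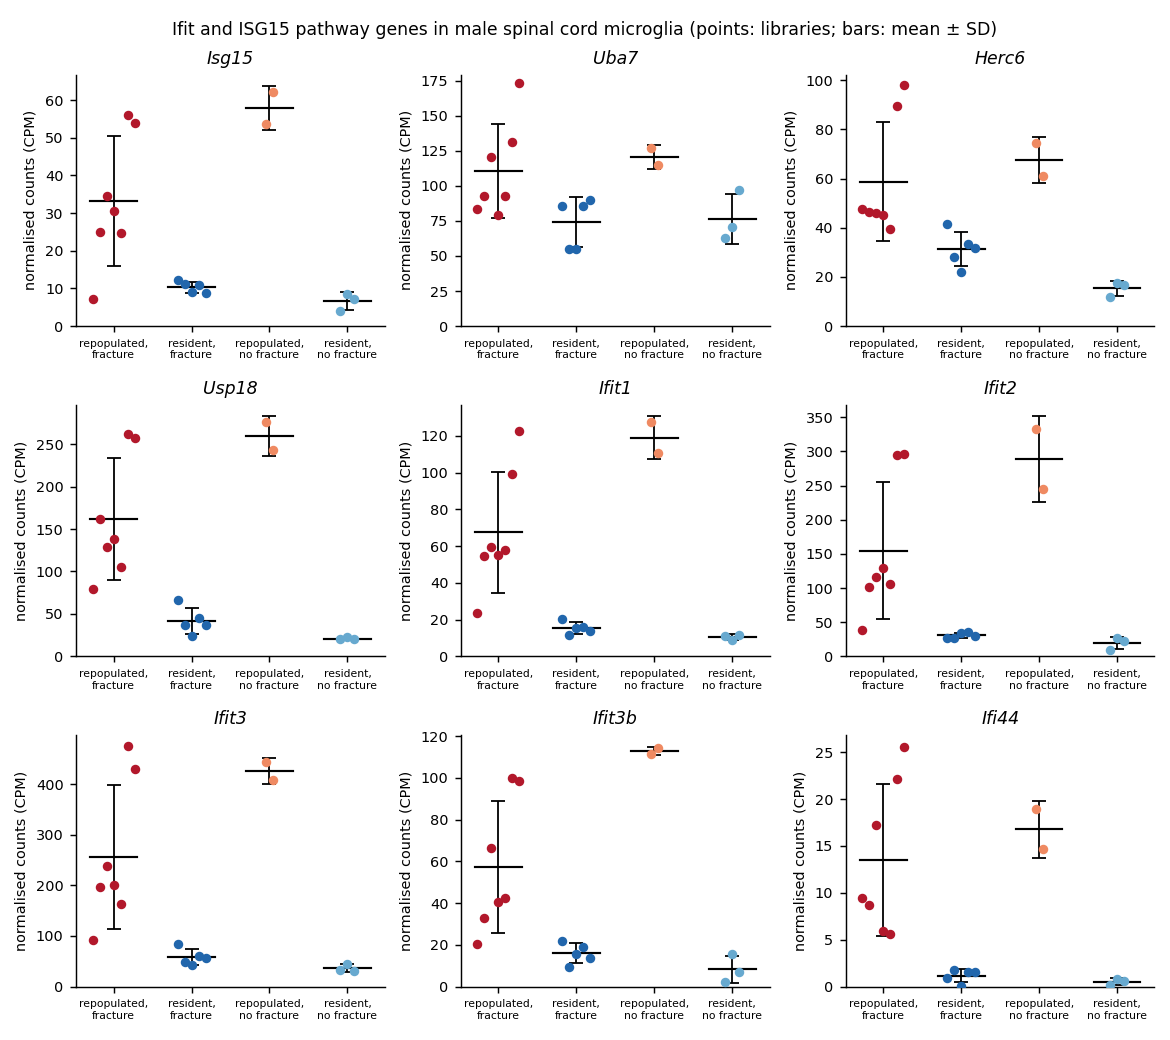
Levels of the 9 genes in male libraries, in CPM on an axis of its own for each gene; points are libraries, bars the mean with its SD, for repopulated and resident microglia with fracture (n = 7 and 5) and without (n = 2 and 3). Both repopulated no fracture libraries lie above all resident no fracture libraries for all 9 genes, and the 7 repopulated fracture libraries spread widely.

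With fracture, the log2 change in males was smaller for each of the 9 genes than without it, and the repopulated libraries differed widely among themselves; the test of that difference is given with the interaction. Of the 9 genes 8 rose by edgeR (3.03% of all genes were called higher) and 9 by DESeq2 (6.91% of all genes called), with a median log2 change of 1.96. The groups did not overlap for Ifit1, Ifit2, Ifit3, Usp18 and Ifi44, which held for 2.0% of all genes. Within each fracture state the groups were compared in 1 fit over all 17 male libraries.

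Ifit1 ran over 23.4, 57.63 and 122.7 CPM (lowest, median and highest) in the 7 repopulated fracture libraries of males, against 20.47, 11.87, 15.24, 15.79 and 13.84 CPM in the resident fracture libraries. Ifit2 had 38.21, 116.1 and 296.2 CPM (lowest, median and highest) in repopulated libraries, against 27.35, 27.34, 33.91, 36.03 and 30.21 CPM in resident ones. The lowest repopulated library lay only just above the highest resident library for both genes. Their log2 changes were 2.13 ± 0.29 (4.38-fold; edgeR adjusted p = 0.000332) and 2.32 ± 0.45 (4.99-fold; adjusted p = 0.00794). Ifit3 had 92.77, 199.9 and 475.4 CPM (lowest, median and highest) in repopulated libraries, against 83.34, 48.36, 42.89, 61.01 and 55.5 CPM in resident ones, a log2 change of 2.14 ± 0.36 (edgeR adjusted p = 0.00311). Ifit3b had 20.47, 42.51 and 99.78 CPM (lowest, median and highest) in repopulated libraries, against 21.92, 9.508, 15.7, 18.71 and 13.52 CPM in resident ones. Here the groups overlapped by 1 library, and the log2 change of 1.86 ± 0.45 (edgeR adjusted p = 0.0257) was lost without resident fracture library 2, 3 or 5 (adjusted p = 0.0758, 0.0628 and 0.0696).

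Isg15 had 7.129, 30.57 and 56.04 CPM (lowest, median and highest) in male repopulated fracture libraries, against 12.15, 11.08, 9.012, 10.92 and 8.667 CPM in resident fracture libraries. Repopulated library 1 was below every resident library and the other 6 were above all of them. Isg15 rose by 1.68 ± 0.34 on the log2 scale (3.2-fold; edgeR adjusted p = 0.0052). Usp18 had 78.97, 137.9 and 262.1 CPM (lowest, median and highest) in repopulated libraries, against 66.31, 36.92, 24.01, 44.8 and 36.73 CPM in resident ones, a log2 change of 1.96 ± 0.31 without overlap (3.89-fold; edgeR adjusted p = 0.00169). Herc6 had 39.37, 46.37 and 98.0 CPM in repopulated libraries, again lowest, median and highest, against 41.33, 28.17, 22.21, 33.53 and 31.65 CPM in resident ones. The groups overlapped, and the log2 change of 0.91 ± 0.22 (edgeR adjusted p = 0.0184) was lost without resident fracture library 2 or 3 (adjusted p = 0.0591 and 0.0655). Uba7 had 78.98, 93.07 and 173.4 CPM in repopulated libraries, against 85.94, 55.12, 55.08, 85.91 and 89.61 CPM in resident ones, with overlap and a log2 change of 0.58 ± 0.19 that passed by DESeq2 (adjusted p = 0.0257) and not by edgeR (adjusted p = 0.0938). Ifi44 had 5.596, 9.414 and 25.57 CPM in repopulated libraries, against 0.9167, 1.751, 0.03055, 1.53 and 1.511 CPM in resident ones. Every repopulated library was above every resident one, and the log2 change was 3.57 ± 0.62 (11.9-fold; edgeR adjusted p = 0.00148).

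The wide range among male repopulated fracture libraries was shared by the members. The summed level of the 9 genes was 401.7, 719.8, 827.7, 724.0, 636.0, 1530 and 1557 CPM in libraries 1 to 7. Library 1 was lowest for 6 of the 9 genes, and libraries 6 and 7 were the highest and second highest for all 9. Libraries 6 and 7 were thus near the repopulated no fracture libraries, which summed to 1567 and 1374 CPM, while the resident fracture libraries summed to 359.7, 230.1, 218.1, 308.2 and 281.2 CPM and the resident no fracture libraries to 154.4, 216.1 and 214.5 CPM. The highest library exceeded the lowest 7.86-fold for Isg15 and 7.75-fold for Ifit2, against 2.49-fold for Herc6 and 2.2-fold for Uba7. With libraries 6 and 7 left out, a choice made after their values were seen, 6 genes remained called by edgeR among males with fracture (1.95% of all genes called higher). Isg15 then rose by 1.24 (adjusted p = 0.0244) and Ifit1 by 1.7 (adjusted p = 0.000114), while Ifit3b (1.36, adjusted p = 0.063) and Herc6 (0.52, adjusted p = 0.0845) no longer passed. Libraries 6 and 7 were picked by the level tested, and leaving them out narrowed the spread (SE of Ifit1 0.21, against 0.29 with them). The calls and p-values of that fit are therefore not a valid test, and only its smaller changes are of use.

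The titles of the male libraries carry a V number whose meaning is not stated. All male no fracture libraries had a V number below 99, while fracture libraries fell on both sides of 99. Repopulated fracture libraries 6 and 7 were among those of 99 or above. Male comparisons of fracture with no fracture, and the male interaction, thus also set different V numbers against each other. They were fitted with the V number as a block as well, and those values are given with them. Among fracture libraries with a V number below 99 (3 repopulated and 3 resident), all 9 log2 changes were positive and 2 passed by edgeR (0.45% of all genes called higher), Ifit1 with 1.54 (adjusted p = 0.0334) and Usp18 with 1.55 (adjusted p = 0.0431). Among those with a V number of 99 or above (4 repopulated and 2 resident), again all 9 were positive and 4 passed (0.8% of all genes called higher): Ifit1 with 2.51 (adjusted p = 0.0022), Ifit3 with 2.45 (adjusted p = 0.0309), Isg15 with 2.08 (adjusted p = 0.0176) and Usp18 with 2.23 (adjusted p = 0.00829). The direction thus held in both sets, with fewer calls in each.

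**Figure D2:**
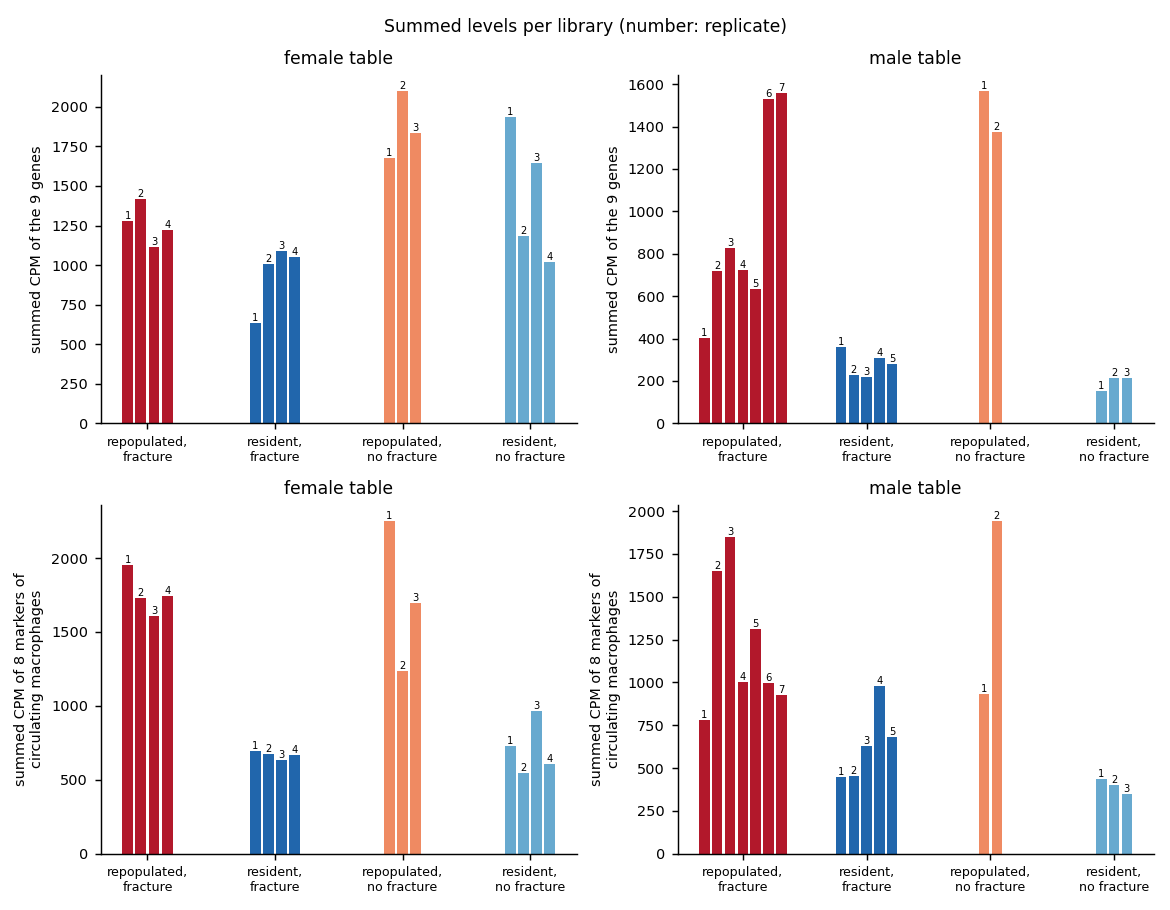
Summed level of the 9 genes (top) and of 8 markers of circulating macrophages and monocytes (bottom) in each library, in CPM, by group and sex. Male repopulated fracture libraries 6 and 7 reach 1530 and 1557 CPM for the 9 genes. The marker sum is higher in all repopulated than in all resident libraries in females, and in males without fracture. Male groups with fracture overlap.

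The markers of circulating macrophages and monocytes tended to be higher in repopulated libraries; their sum was not tested. The summed level was 780.4, 1651, 1852, 1005, 1312, 997.3 and 925.5 CPM in male repopulated fracture libraries 1 to 7, against 447.9, 452.0, 626.3, 978.1 and 682.2 CPM in resident fracture libraries, with overlap. Without fracture it was 933.6 and 1940 CPM in male repopulated libraries, against 433.4, 398.5 and 348.4 CPM in resident ones, where 1 marker, Fn1, was at 0 in all 3 libraries. Without fracture both male repopulated libraries thus lay above all 3 resident ones. Both macrophages and microglia express the 9 genes, and the part of such cells in the differences was not tested. B cell markers, of which 3 of 6 were listed, ran the other way: 331.9 to 450.7 CPM in male repopulated fracture and 429.0 to 528.5 CPM in resident fracture libraries, and 312.4 to 339.7 CPM in repopulated no fracture and 471.0 to 543.1 CPM in resident no fracture libraries.

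Averaged over both fracture states, all 9 genes rose in male repopulated microglia by edgeR, which called 7.14% of all genes higher, and by DESeq2, which called 14.9% in either direction. Isg15 rose by 2.41 ± 0.31 (edgeR adjusted p = 2.11e-05), Ifit1 by 2.8 ± 0.26 (adjusted p = 1.03e-06) and Ifi44 by 4.42 ± 0.58 (adjusted p = 2.1e-05), on the log2 scale. The smallest change was that of Uba7, 0.61 ± 0.17 (edgeR adjusted p = 0.0211). It did not pass without resident no fracture library 1 (adjusted p = 0.0673), without repopulated no fracture library 1 (0.0895) or 2 (0.0612), or when protein-coding transcripts alone were summed (log2 0.43, adjusted p = 0.77).

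In females the same genes were higher in repopulated microglia on average, but none passed the test in either fracture state taken alone. Without fracture none of the 9 passed by edgeR (1.56% of all genes called higher) or DESeq2 (5.05% of all genes called), and 1 had an unadjusted p below 0.05, as did 15.3% of all genes. With fracture again none passed by edgeR (1.27% of all genes called higher) or DESeq2 (5.08% of all genes called), and 3 had an unadjusted p below 0.05, as did 13.7% of all genes. All 9 log2 changes were positive in both fracture states, with medians of 0.39 without fracture and 0.43 with it, against -0.0189 and -0.0002 over all genes. A p that misses the threshold does not show that the levels were alike.

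Female Isg15 had 24.54, 35.12 and 30.59 CPM in repopulated no fracture libraries, against 37.64, 14.54, 23.49 and 19.27 CPM in resident no fracture libraries. Usp18 had 191.9, 267.7 and 227.4 CPM in repopulated and 233.5, 83.08, 198.8 and 108.5 CPM in resident libraries. For both genes resident library 1 was as high as the repopulated libraries, and the groups overlapped. The log2 changes were 0.34 ± 0.27 for Isg15 and 0.55 ± 0.38 for Usp18. Ifi44 had 30.68, 58.01 and 64.03 CPM in repopulated and 27.6, 4.6, 31.8 and 13.14 CPM in resident no fracture libraries. Resident library 3 lay just above the lowest repopulated library, and the log2 change of 1.4 ± 0.6 was the largest of the 9 without passing (edgeR unadjusted p = 0.0372, adjusted p = 0.287). Ifit1 had 84.97, 151.0 and 91.65 CPM in repopulated and 99.5, 56.84, 78.33 and 41.49 CPM in resident no fracture libraries, a log2 change of 0.66 ± 0.33 with overlap. Ifit2, Ifit3 and Ifit3b had log2 changes of 0.34, 0.5 and 0.39, each overlapping, and Herc6 and Uba7 of 0.09 and 0.16, and none passed. Without fracture no member had groups free of overlap, against 6.87% of all genes. Resident no fracture library 1 was the highest of its group for 8 of the 9 genes.

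With fracture, female Ifit1 had 72.22, 96.65, 60.33 and 57.84 CPM in repopulated libraries, against 23.85, 53.37, 48.61 and 45.07 CPM in resident libraries. Uba7 had 418.4, 414.0, 418.1 and 446.5 CPM in repopulated and 308.2, 327.2, 392.0 and 356.7 CPM in resident libraries. Ifi44 had 24.75, 17.02, 35.08 and 35.16 CPM in repopulated and 4.537, 4.497, 13.43 and 16.06 CPM in resident libraries. For these 3 genes all 4 repopulated libraries were above all 4 resident ones, which held for 6.26% of all genes. Their log2 changes were 0.75 ± 0.31 (edgeR adjusted p = 0.281), 0.29 ± 0.1 (adjusted p = 0.172) and 1.54 ± 0.58 (adjusted p = 0.228). Isg15 had 17.62, 16.62, 17.1 and 18.18 CPM in repopulated fracture libraries, against 9.812, 18.04, 17.72 and 15.79 CPM in resident ones. The repopulated values lay within a narrow band, resident libraries 2 and 3 lay in it, and libraries 1 and 4 lay below it. Its log2 change was 0.18 ± 0.25, and 0.02 without library 1. Ifit2 (0.43), Ifit3 (0.43), Ifit3b (0.49), Usp18 (0.55) and Herc6 (0.22) overlapped as well.

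Female resident fracture library 1 was the lowest of its group for 8 of the 9 genes and summed to 635.2 CPM, against 1004, 1088 and 1054 CPM in the other 3 resident fracture libraries. The 4 repopulated fracture libraries summed to 1277, 1417, 1117 and 1222 CPM. Without that library the log2 change with fracture was 0.2 for Ifit2, 0.21 for Ifit3, 0.55 for Ifit1 and 1.3 for Ifi44, and all of them kept their direction. Over both fracture states, Ifi44 alone rose in female repopulated microglia, by 1.47 ± 0.42 on the log2 scale (2.77-fold; edgeR adjusted p = 0.0469), where 4.43% of all genes were called higher. Ifit1 followed with 0.71 ± 0.22 and passed by DESeq2 (adjusted p = 0.00908), which called 11.1% of all genes, but not by edgeR (adjusted p = 0.0733). The Ifi44 call was lost in 11 of 15 fits with 1 library removed (adjusted p = 0.0503 to 0.0934). Those were the fits without resident no fracture library 1 or 4, resident fracture library 1, 2 or 3, repopulated no fracture library 1, 2 or 3, or repopulated fracture library 1, 3 or 4. The call was also lost with protein-coding transcripts alone (1.4, adjusted p = 0.0545).

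**Figure D3:**
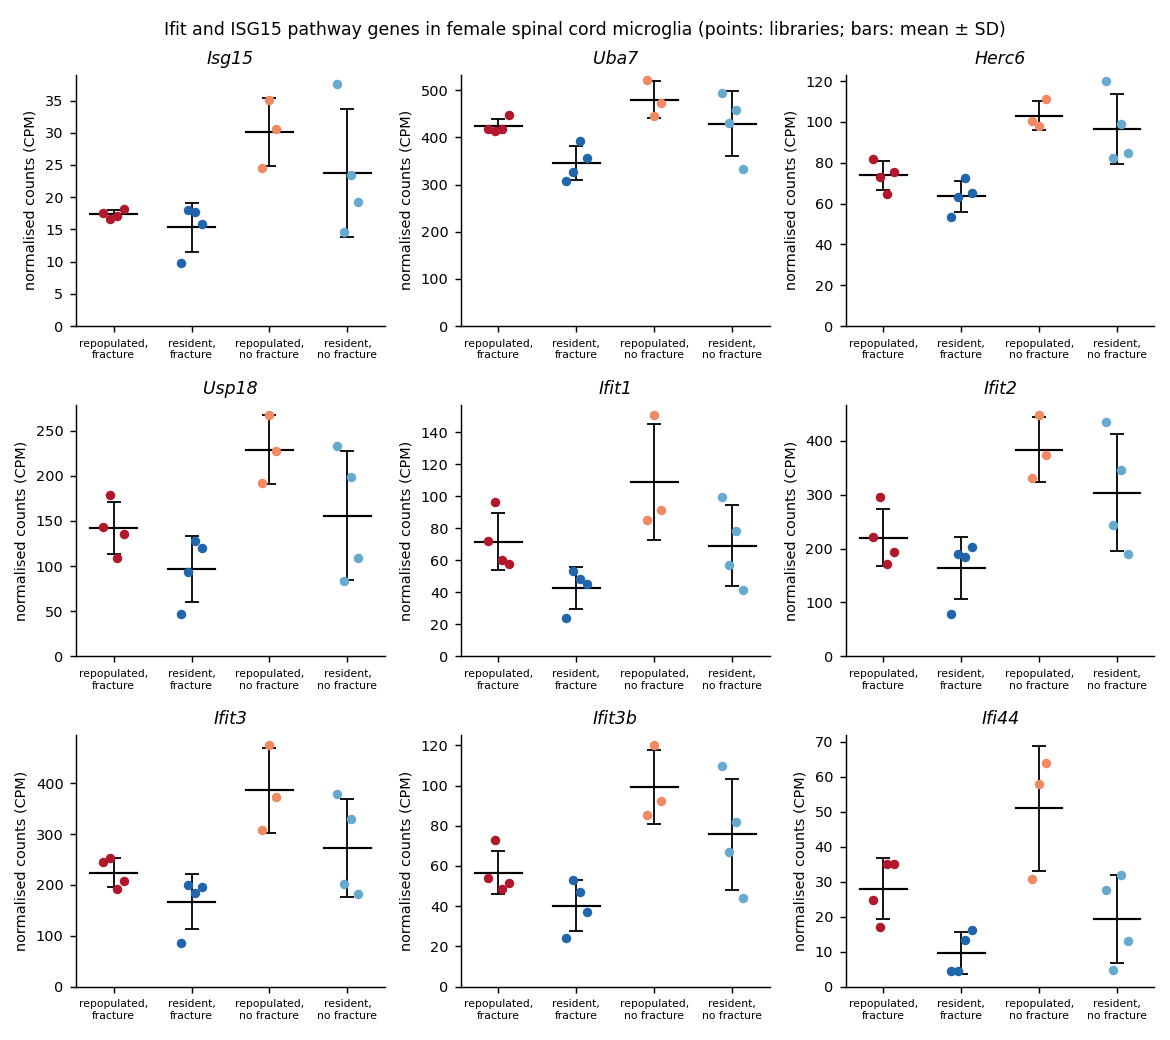
Levels of the 9 genes in female libraries, in CPM on an axis of its own for each gene; points are libraries, bars the mean with its SD, for repopulated and resident microglia with fracture (n = 4 and 4) and without (n = 3 and 4). The no fracture groups overlap for all 9 genes, and Ifit1, Uba7 and Ifi44 do not overlap with fracture.

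The macrophage and monocyte markers in females summed to 1954, 1732, 1605 and 1742 CPM in repopulated fracture, against 691.6, 675.6, 631.2 and 670.7 CPM in resident fracture libraries. Without fracture they summed to 2248, 1236 and 1695 CPM in repopulated and 729.5, 543.9, 963.7 and 608.3 CPM in resident libraries. Those groups stood apart in both fracture states. B cell markers summed to 388.6 to 460.8 CPM in repopulated and 545.5 to 600.0 CPM in resident fracture libraries. The part of such cells in the differences was not tested.

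Fracture was set against no fracture within each kind of microglia. These comparisons share their libraries with the comparisons above, so their values are not separate evidence. In female resident microglia all 9 log2 changes were negative with a median of -0.69, against -0.0099 over all genes. None passed by edgeR, which called 0.0% of all genes in either direction, 1 passed by DESeq2 (0.0299% of all genes called), and 7 of the 9 had an unadjusted p below 0.05, as did 4.93% of all genes. Resident fracture library 1 was lowest, and resident no fracture library 1 highest, of its group for 8 of the 9 genes. Counts of genes that move together over libraries are not counts of separate evidence. In female repopulated microglia all 9 were again negative with a median of -0.78. None passed by edgeR (0.0% of all genes called) or DESeq2 (0.665% of all genes called), and 5 had an unadjusted p below 0.05, as did 10.5% of all genes.

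Herc6 was the member without overlap in female resident microglia. It had 53.65, 63.01, 72.34 and 65.21 CPM in resident fracture libraries, against 119.9, 82.51, 98.99 and 84.93 CPM in resident no fracture libraries. All 4 fracture libraries were below all 4 others, which held for 1.78% of all genes. The log2 change was -0.6 ± 0.12 (edgeR unadjusted p = 0.000185, adjusted p = 0.62; DESeq2 adjusted p = 0.0466). Ifit2 had 78.18, 190.2, 184.0 and 202.9 CPM with fracture, against 435.3, 242.9, 346.5 and 190.1 CPM without it, in resident libraries. The groups overlapped, and the log2 change was -0.89 ± 0.31, or -0.66 without resident fracture library 1. Ifit3b had 24.11, 53.05, 47.25 and 36.85 CPM with fracture and 109.7, 67.12, 81.99 and 44.02 CPM without, with overlap and a log2 change of -0.91 ± 0.27. Without resident fracture library 1 all 9 changes remained negative.

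In female repopulated microglia, 6 of the 9 genes (Ifit2, Ifit3, Ifit3b, Isg15, Usp18 and Herc6) were lower in every fracture library than in every no fracture library, which held for 6.2% of all genes. Isg15 had 17.62, 16.62, 17.1 and 18.18 CPM with fracture, against 24.54, 35.12 and 30.59 CPM without it. Herc6 had 81.91, 72.92, 64.68 and 75.62 CPM with fracture, against 100.3, 97.81 and 111.2 CPM without. Ifit3 had 244.5, 253.2, 192.5 and 207.2 CPM with fracture, against 308.6, 475.7 and 373.3 CPM without. The fracture libraries were the lower ones throughout. Their log2 changes of -0.79 ± 0.27 (edgeR adjusted p = 0.371), -0.48 ± 0.13 (adjusted p = 0.312) and -0.78 ± 0.3 did not pass.

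In male resident microglia with fracture 8 of the 9 log2 changes were positive, with a median of 0.71. None passed by edgeR (0.00833% of all genes were called higher) or by DESeq2 (0.1% of all genes called), and 2 had an unadjusted p below 0.05, as did 4.26% of all genes. Ifit1, Ifit2, Isg15, Usp18 and Herc6 were higher in all 5 fracture libraries than in all 3 no fracture libraries, which held for 2.36% of all genes. Herc6 had 41.33, 28.17, 22.21, 33.53 and 31.65 CPM with fracture, against 11.8, 17.46 and 16.71 CPM without it, a log2 change of 1.04 ± 0.29 (edgeR unadjusted p = 0.00172, adjusted p = 0.98). Usp18 had 66.31, 36.92, 24.01, 44.8 and 36.73 CPM with fracture, against 20.29, 22.33 and 20.39 CPM without, a log2 change of 0.99 ± 0.39 that did not pass. The lowest Usp18 fracture library was just above the highest no fracture library. Uba7 had a log2 change of -0.05 ± 0.23. With the V number as a block, the change was 0.9 ± 0.28 for Herc6, 0.86 ± 0.39 for Usp18 and -0.2 ± 0.23 for Uba7. Again 8 of the 9 changes were positive and none passed.

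In male repopulated microglia all 9 log2 changes with fracture were negative, with a median of -0.73. None passed by edgeR (0.0% of all genes were called lower) or DESeq2 (0.325% of all genes called), and 1 (Ifit1) had an unadjusted p below 0.05, as did 8.29% of all genes. Ifit1 differed by -0.82 ± 0.35 (edgeR unadjusted p = 0.0301, adjusted p = 0.552). Ifit3b had 20.47, 42.51 and 99.78 CPM (lowest, median and highest) in the 7 fracture libraries, against 111.4 and 114.3 CPM in the 2 no fracture libraries. It was the only member without overlap, as were 3.52% of all genes on the lower side. Libraries 6 and 7 reached into or near the no fracture values for the other members. With the V number as a block, Ifit1 differed by -1.15 ± 0.36 (edgeR adjusted p = 0.263) and Ifit2 by -1.49 ± 0.53 (adjusted p = 0.378). Each of the 9 changes was more negative with the block than without it, and none passed. The size of the fracture difference in male repopulated microglia thus depended on the V number.

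Whether the effect of repopulation differed with fracture was tested as an interaction. In males all 9 interaction terms were negative, meaning a smaller difference between repopulated and resident microglia with fracture, with a median of -1.48. None passed by edgeR (0.00833% of all genes were called) or DESeq2 (0.158% of all genes called), and 6 had an unadjusted p below 0.05, as did 7.38% of all genes. Herc6 had the lowest p of the 9 genes, with -1.24 ± 0.41 (edgeR unadjusted p = 0.00582, adjusted p = 0.45). Usp18 had -1.68 ± 0.54 (unadjusted p = 0.00736 by edgeR) and Isg15 -1.48 ± 0.6 (unadjusted p = 0.0241 by edgeR). With the V number as a block, the male terms were -1.33 ± 0.39 for Herc6, -1.78 ± 0.53 for Usp18 and -1.64 ± 0.59 for Isg15. All 9 stayed negative and none passed. In females the terms lay between -0.16 and 0.14, none passed by edgeR (0.0% of all genes called) or DESeq2 (0.00748% of all genes called), and none had an unadjusted p below 0.05, as did 3.69% of all genes.

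**Figure D4:**
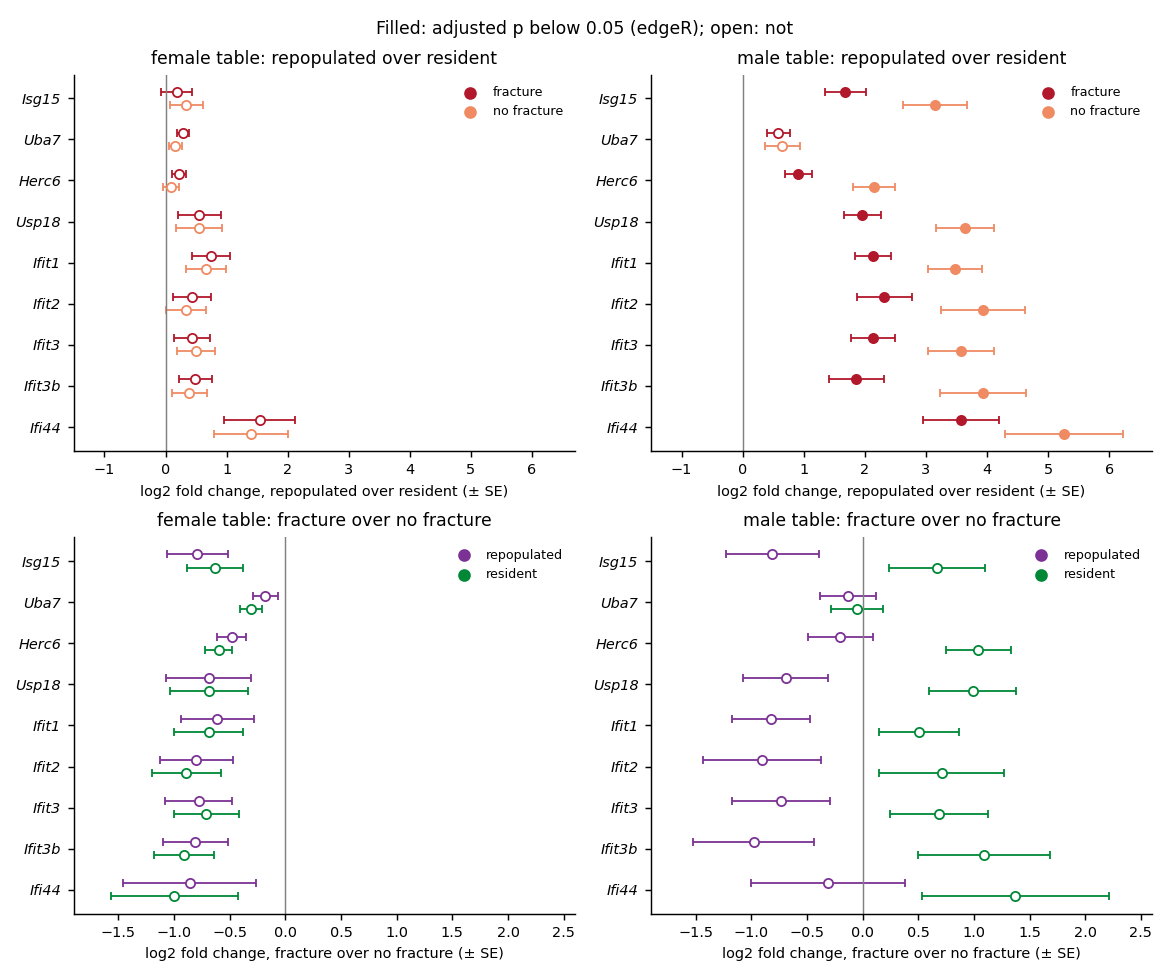
Log2 fold change with its SE for the 9 genes, females left and males right: repopulated over resident with and without fracture (top), and fracture over no fracture in repopulated and resident microglia (bottom). Filled points passed an adjusted p below 0.05 by edgeR; these are the 8 male genes in each of the 2 top male comparisons, and no point in females.

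The order of the members by level was compared per length, in TPM, a gene's share of all listed transcripts after division by length, computed from the listed transcripts and their annotated lengths. In male repopulated no fracture libraries Ifit3 stood first with 427.7 ± 56.63 TPM (SD, n = 2), followed by Usp18 with 257.0 ± 41.62 TPM. Isg15 (133.2 ± 3.918 TPM) and Ifit2 (133.0 ± 38.08 TPM) were level, and Ifit3b (98.42 ± 5.385 TPM) and Uba7 (89.1 ± 9.07 TPM) differed by about their spread. Ifit1 had 78.52 ± 13.41 TPM, Herc6 31.44 ± 1.407 TPM and Ifi44 10.14 ± 2.556 TPM. In male resident no fracture libraries Uba7 stood first with 59.58 ± 17.85 TPM (SD, n = 3), ahead of Ifit3 with 38.98 ± 10.12 TPM and Usp18 with 22.06 ± 2.716 TPM. Isg15 (16.71 ± 6.711 TPM) followed, then Herc6 (9.882 TPM), Ifit2 (9.781 TPM), Ifit3b (7.903 TPM) and Ifit1 (7.406 TPM), where neighbours lay within each other's spread, and Ifi44 (0.3339 TPM) was last.

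Female levels gave another order. In resident no fracture libraries Uba7 (327.7 ± 42.42 TPM; SD, n = 4) and Ifit3 (316.0 ± 105.4 TPM) led within each other's spread, then came Usp18 (183.9 ± 80.21 TPM) and Ifit2 (161.0 ± 55.43 TPM), also within it. Ifit3b (76.64 TPM), Isg15 (63.58 TPM), Ifit1 (52.61 TPM) and Herc6 (43.84 TPM) followed, and Ifi44 was again last with 12.17 ± 7.619 TPM. In repopulated no fracture libraries Ifit3 had 410.9 ± 91.65 TPM, Uba7 337.8 ± 23.19 TPM and Isg15 73.96 ± 13.56 TPM (SD, n = 3). Levels of the female and male tables were not compared, since preparation and table differed.

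Uba7 was the member whose listed transcripts were least often coding. The female table listed 12 Uba7 transcripts, of which the protein-coding ones held 12.1% of the counts and 1 retained-intron transcript, ENSMUST00000176858.7, held 29.6%. The male table listed 8, with 26.7% of the counts in protein-coding ones. By library the coding share ran over 6.241% to 14.23% in female repopulated fracture, 7.44% to 16.29% in resident fracture, 6.37% to 15.82% in repopulated no fracture and 11.23% to 19.89% in resident no fracture libraries. In males it was 11.43% to 37.11% in repopulated fracture and 0.065% to 31.23% in resident fracture libraries, where library 2 had a single count of 1542 in the coding transcripts. Male no fracture libraries had 23.84% to 28.65% in repopulated and 24.19% to 48.84% in resident microglia. Splitting counts over transcripts that share exons is an estimate. Summed over coding transcripts alone, the female Uba7 difference without fracture was -0.22 (edgeR adjusted p = 0.849), against 0.16 over all transcripts. Herc6 had 3 listed transcripts with 88.5% of female and 93.9% of male counts in coding ones, and Ifi44 had 68.9% in females and a single coding transcript in males.

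**Figure D5:**
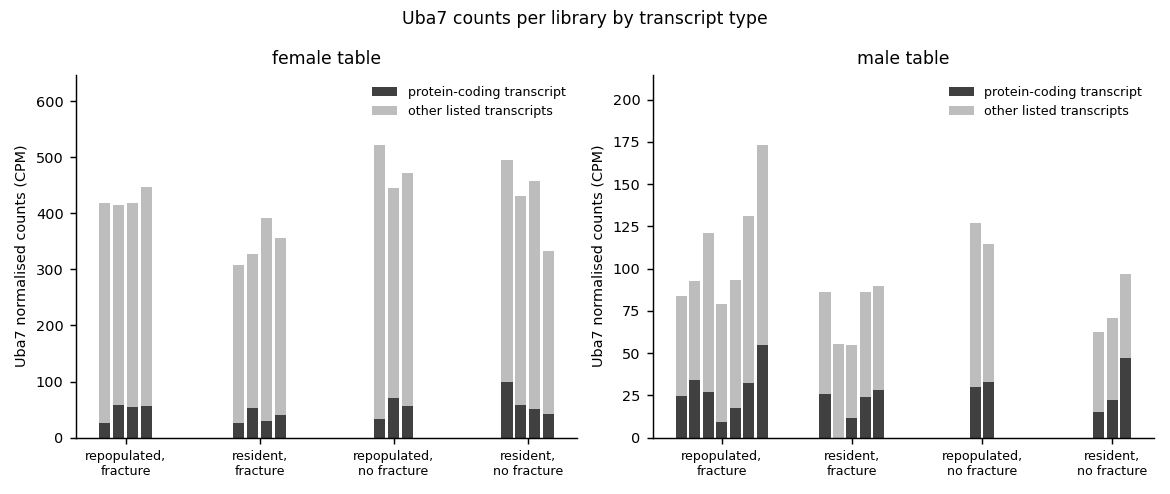
Uba7 level in each library, in CPM, split into the protein-coding transcript (lower part of the bar) and the other listed transcripts (upper part). The other transcripts hold most of the counts in all libraries, in males and females alike.

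Ifit3 and Ifit3b are near-identical copies, so their reads may be split between them. Their coding sequences have 1201 of 1212 bases in common (99.1%), and 98.0% of 1697 aligned transcript bases are the same. Of the 1901 stretches of 100 bases in the Ifit3b transcript, 521 (27.4%) occur letter for letter in Ifit3, and of the 1951 stretches of 50 bases 869 do (44.5%). The other pairs of Ifit genes share between 59.2% and 66.8% of their aligned coding bases. Added up, Ifit3 and Ifit3b differed by 3.62 ± 0.56 without fracture (edgeR adjusted p = 0.00104) and 2.09 ± 0.37 with fracture (adjusted p = 0.00425) between male repopulated and resident microglia. In females the sum differed by 0.48 without fracture and 0.44 with it. The direction for the pair thus did not rest on how reads were divided between the copies.

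Among the listed neighbours within 100000 bases of the Ifit cluster, Ch25h, the cholesterol 25-hydroxylase that is itself interferon-inducible, rose in male repopulated microglia by 2.86 ± 0.58 without fracture (edgeR adjusted p = 0.0034) and 1.92 ± 0.39 with it (adjusted p = 0.00515). In females Ch25h rose by 1.98 ± 0.47 with fracture (edgeR adjusted p = 0.041), while 1.53 ± 0.49 without fracture did not pass (adjusted p = 0.122). Lipa, the lysosomal acid lipase, lies between Ch25h and Ifit2 and differed by 0.14 ± 0.11 and 0.16 ± 0.07 in males without and with fracture, with no call. Ifit1bl1, an Ifit-related gene in the cluster with a mean of 4.181 CPM in males, differed by 1.78 ± 0.75 without fracture (edgeR adjusted p = 0.19). Ifit1bl2 and Slc16a12 were not listed in either table.

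Other interferon-stimulated genes were taken from a list of 52, of which 50 were listed in each table. In males without fracture 46 of the 50 rose and none fell by edgeR (4.7% of all genes called higher), 47 were called by DESeq2 (9.63% of all genes), and the median was 2.04. The largest changes were those of the 2′-5′ oligoadenylate synthetases Oas2 (6.1 ± 0.94, edgeR adjusted p = 0.000623) and Oas3 (5.45 ± 1.06, adjusted p = 0.00343), the chemokine Cxcl10 (5.88 ± 0.81, adjusted p = 0.000432) and Oasl1 (5.2 ± 1.06, adjusted p = 0.00625). Cxcl10 had 220.9 ± 17.44 CPM in repopulated libraries (SD, n = 2) and 4.507 ± 3.458 CPM in resident ones (n = 3). With fracture 32 rose in males (3.03% of all genes called higher) and 39 were called by DESeq2 (6.91% of all genes), with a median of 1.08, led by Oas3 (4.08 ± 0.74), Oas2 (3.84 ± 0.6), Cxcl10 (2.88 ± 0.49) and Oasl1 (2.81 ± 0.67). In females none of the 50 passed by edgeR in either fracture state, with medians of 0.31 without and 0.42 with fracture. Of all genes edgeR called 1.56% higher without fracture and 1.27% with it. DESeq2 called none of the 50 without fracture (5.05% of all genes called) and 7 with it (5.08% of all genes called). An unadjusted p below 0.05 was seen for 6 of the 50 without fracture (15.3% of all genes) and for 15 with it (13.7% of all genes). The lowest p without fracture were those of Epsti1 (0.44 ± 0.16), Iigp1 (1.02 ± 0.38) and Tor3a (0.36 ± 0.15), and with fracture those of Oas3 (2.29 ± 0.6), Samd9l (0.57 ± 0.16) and Oasl1 (1.41 ± 0.39). Over both fracture states 7 rose in females by edgeR (4.43% of all genes called higher) and 14 were called by DESeq2 (11.1% of all genes). The largest changes were those of Oas3 (1.85 ± 0.42, edgeR adjusted p = 0.0159), Oas2 (1.58 ± 0.42, adjusted p = 0.0374), the immunity-related GTPase Iigp1 (1.16 ± 0.26, adjusted p = 0.0134) and Oasl1 (1.14 ± 0.28, adjusted p = 0.0214).

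With fracture, the same list had medians of -0.63 in female resident and -0.55 in female repopulated microglia, with none called by edgeR or DESeq2. Of all genes edgeR called 0.0% in both, and DESeq2 0.0299% in resident and 0.665% in repopulated microglia. An unadjusted p below 0.05 was seen for 38 of the 50 in resident microglia (4.93% of all genes) and 22 in repopulated ones (10.5% of all genes). The lowest p in resident microglia were those of Samd9l (-0.65 ± 0.16), Dtx3l (-0.5 ± 0.13) and Ifi47 (-1.34 ± 0.37), and in repopulated microglia those of Cmpk2 (-0.95 ± 0.3), Tap1 (-0.65 ± 0.22) and Psmb8 (-0.41 ± 0.14). In males its medians were 0.5 in resident and -0.56 in repopulated microglia, with none called by either tool and 13 (4.26% of all genes) and 14 (8.29% of all genes) at an unadjusted p below 0.05. Of all genes DESeq2 called 0.1% and 0.325%, and edgeR called 0.00833% higher in resident and 0.0% lower in repopulated microglia. The lowest p in male resident microglia were those of Gbp3 (0.86 ± 0.24), Slfn5 (1.31 ± 0.42) and Oas1a (31.05 ± 6.315 CPM with fracture and 14.78 ± 4.638 CPM without, mean ± SD, n = 5 and 3), and in male repopulated microglia those of Dtx3l (-0.97 ± 0.25), Ly6e (-0.37 ± 0.12) and Epsti1 (-0.64 ± 0.21). The male interaction had a median of -1.11 over the list, with none called by edgeR (0.00833% of all genes) or DESeq2 (0.158% of all genes). Of the list 29 had an unadjusted p below 0.05 (7.38% of all genes), the lowest for Bst2 (-0.98 ± 0.24), Ly6e (-0.62 ± 0.16) and Trim30a (-1.14 ± 0.32).

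Of the genes that carry interferon signals, 21 were in the list and 20 were in the male table. In males without fracture 9 rose and 2 fell by edgeR, where 4.7% of all genes were called higher and 2.72% lower. DESeq2 called 11 of the list, and 9.63% of all genes in either direction. The transcription factor Irf7, which amplifies interferon production, rose by 4.31 ± 0.71 to 352.4 ± 33.58 CPM in repopulated libraries (SD, n = 2), against 18.27 ± 5.502 CPM in resident ones (n = 3; edgeR adjusted p = 0.00171). Stat2, a factor that carries the signal to the nucleus, rose by 2.18 ± 0.42 (edgeR adjusted p = 0.00373) and the inhibitor Socs1 by 1.26 ± 0.33 (adjusted p = 0.0212). The genes that fell, named after their values were seen, were the interferon gamma receptor chain Ifngr1 and the factor Irf5. With fracture 4 rose in males by edgeR (3.03% of all genes called higher) and 5 were called by DESeq2 (6.91% of all genes). Among them were Irf7 (2.35 ± 0.46, edgeR adjusted p = 0.00823), Stat2 (1.3 ± 0.28, adjusted p = 0.0116) and the type I receptor chain Ifnar1 (0.4 ± 0.08, adjusted p = 0.00444). Ifnar1 was also the gene of the list that rose in females without fracture (0.41 ± 0.09, edgeR adjusted p = 0.0226), to 263.2 ± 13.59 CPM in repopulated libraries (SD, n = 3), against 198.1 ± 26.23 CPM in resident ones (n = 4). Of all genes edgeR called 1.56% higher in females without fracture. In females with fracture none of the 21 passed by edgeR (1.27% of all genes called higher) or DESeq2 (5.08% of all genes called). There 1 of the 21 had an unadjusted p below 0.05 (13.7% of all genes).

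Genes whose level followed that of the members over the libraries were ranked by Pearson's r between their log2 CPM and the mean standardised level of the 9 genes. In males, over 17 libraries and 9022 genes, the closest were Irf7 (r = 0.991), Fgl2 (0.985), Oas1a (0.984), the chemokine Ccl5 (0.982) and the receptor tyrosine kinase Axl (0.981). In females, over 15 libraries and 9207 genes, they were Slfn5 (0.98), the RNA sensor Dhx58 (0.972), Oasl2 (0.97), Tor3a (0.969) and Mx1 (0.963). The points share library, group and depth, so these are descriptions of likeness and carry no p.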

How the data were processed

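Microglia were sequenced as paired ends. The submitters' processing notes list the build GRCm38 and the tools STAR 2.7.6a, RSEM 1.3.1, Trim Galore 0.6.7, cutadapt 3.4, DESeq2 1.34.0, R 4.1.3, MultiQC 1.11 and FastQC 0.11.9, without their roles; strandedness is not given in those sources. What the authors deposited are estimated counts (expected counts) per transcript, all of them whole numbers, in a female and a male table that list transcripts with at least 10 counts in at least 8 and 9 libraries. A deposited column outside the usual units, which equals the mean absolute deviation over each row, was checked and not used. Genes of low level can therefore be missing.

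Counts were summed by gene identifier and tested with edgeR 4.0.16 (R 4.3.3, TMM scaling, robust quasi-likelihood test, 4 groups per table in 1 fit), with Benjamini-Hochberg adjustment over all genes and a call at 0.05. Counts were also simulated with known changes in the repopulated fracture group alone. There the test of repopulated against resident with fracture gave nearly all changes the right sign. The other comparisons, those without fracture among them, were not checked in this way. DESeq2 1.42.0 and the settings listed at the end were alternatives. Of the transcripts, 98.8% (female) and 98.9% (male) matched GENCODE M21 annotation. Sequences were read with Biopython 1.88.

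The members and lists were chosen with earlier results of these data known. All 9 members are named. Of each list, the genes called in a comparison described are named (the 4 with the largest change where more passed); where none passed, the 3 stimulated genes with the lowest p are named, and counts are given for the signalling genes. A gene of the signalling list is counted but not reported here. Libraries of equal sample number were not treated as pairs, since the labels do not tie them together. Their deviations from the group means correlated from -0.312 to 0.211 in females and from -0.078 to 0.05 in males. Such correlations cannot exclude a shared animal or day.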

Additional observations from a re-analysis of the deposited data

Results flagged for a closer look

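In 45 groups of 4 to 10 libraries, 3 held a library far from the rest of its group, measured as the gap to its nearest neighbour over the range of the group, with a limit of 0.829 for groups of 4. Chance gives about 1 in 20 such groups. Ifit2 had 78.18 CPM in female resident fracture library 1, against 184.0 to 202.9 CPM in the other 3, a gap of 0.848. Ifit3 had 86.31 CPM in the same library, against 184.6 to 200.5 CPM, a gap of 0.861. Uba7 had 446.5 CPM in female repopulated fracture library 4, against 414.0 to 418.4 CPM, a gap of 0.865.

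Herc6 differed between fracture and no fracture in resident microglia in opposite directions, by -0.6 in females and by 1.04 in males on the log2 scale. Its groups did not overlap in either table, but neither change passed by edgeR (adjusted p = 0.62 and 0.98). Opposite signs were not particular to Herc6, since all 9 changes were negative in females and 8 were positive in males. The difference between the sexes was not tested, and sex and library preparation cannot be told apart.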

How the results depend on the processing

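Leaving out each library in turn, the number of the 9 genes called was 8 in every fit for male repopulated against resident microglia without fracture, 6 to 8 with fracture and 8 to 9 over both, and 0 to 2 for females over both. In females over both fracture states DESeq2 called 2 genes and protein-coding transcripts alone 0, against 1; DESeq2 called 1 (Herc6) for fracture in female resident microglia, against 0. In males with fracture 2 genes were called with V numbers below 99 and 4 with 99 or above, against 8. Whether equal sample numbers pair the libraries is not stated. With the replicate number as a block, 5 genes were called by edgeR in males with fracture. Ifit3b, Isg15 and Herc6 no longer passed there (adjusted p = 0.182, 0.0654 and 0.14). Ifit2 was then called for fracture in male repopulated microglia (edgeR adjusted p = 0.0259). For the male interaction Ifit2 and Herc6 were called (edgeR adjusted p = 0.0274 and 0.0433). Replicate numbers 6 and 7 occur only among male repopulated fracture libraries, so the block in effect leaves those libraries out. Its log2 change for Ifit1 in males with fracture, 1.69, was near the 1.7 of the fit without them. All calls with the block that involve this group therefore leave out its 2 highest libraries and are not a valid test. Shares of all genes called are not given for the fits with the block or with 1 library left out. Those counts only show how the calls moved. Without TMM scaling no call changed among the 9 genes. Protein-coding transcripts alone turned Uba7 to -0.22 in females without fracture and to 0.53 in the male interaction. In the female interaction Usp18 turned to 0.0015 with a mean of at least 5 CPM and 0.03 with the block, and Ifi44 to -0.06 with the block. With 1 library left out, the female interaction ran from -0.14 to 0.38 for Ifit1, -0.14 to 0.26 for Ifit2, -0.29 to 0.1 for Ifit3, -0.13 to 0.29 for Ifit3b, -0.48 to 0.01 for Isg15, -0.27 to 0.2 for Usp18 and -0.2 to 0.5 for Ifi44; male Uba7 ran from -0.18 to 0.16 for fracture in resident microglia and -0.29 to 0.06 in the interaction. The cause of these changes of direction was not tested. The fit without libraries 6 and 7 and the one on protein-coding transcripts were chosen after seeing the data. The first was kept only where leaving out the highest libraries makes the difference smaller. It also narrows the spread, so its p-values are not a valid test. Fits of 2 groups alone do not exist for the mean and the interaction. Of the other values 878 kept direction and side of the threshold. Groups of 2 and 3 libraries limit precision in male no fracture comparisons.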
